A study of Danio rerio with 12 samples.

Results

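Genes that hold embryonic cells to one another and to their surroundings were examined in zebrafish embryos exposed to ethanol before gastrulation. They were chosen by name, as probe sets with 1 gene symbol for claudins and zonula occludens scaffolds, cadherins, protocadherins and catenins of the alpha and delta kind, desmosomal proteins, integrins, laminins, collagens and fibronectin. The names matched 104 probe sets of 82 genes. Of these genes, 36 had a probe set whose mean signal reached 50 in ethanol-exposed or control embryos, and each of the 36 is described on its probe set of highest mean signal. They comprise 15 of 26 tight junction genes, 7 of 18 cadherin and catenin genes, 3 of 3 desmosomal genes and 11 of 35 matrix and integrin genes, out of 6410 named genes with a tested probe set.

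The arrays hold RNA from whole embryos of the ABTL strain, in pools of 20, collected at 4.5 hours postfertilization (hpf). The ethanol group had 100 mM ethanol added to its embryo medium at 2 hpf until collection, and the control group was raised in the same medium without ethanol. Each group has 6 arrays, 1 from each of 6 experiments. The methods fit experiment as a random factor, and the replicate number of the labels was taken as that of the experiment, although no source states it. All 6 same-numbered pairs deviated together, but only 3 of 6 control arrays were closest to the ethanol array of their own number. The values are MAS5 signals, the background-corrected intensity of a probe set on a linear scale. As whole embryos were pooled, fewer cells of a type and less RNA per cell cannot be told apart. Array medians of the signal were 98.6 to 106.6 on the ethanol arrays and 91.6 to 102 on the control arrays. Precision is limited by the 6 arrays of each group. All 10 early zygotic genes with a probe set, such as the mesodermal gene *tbxta*, passed the minimum signal, whereas all 6 genes of later tissues with a probe set, such as the heart gene *myl7*, lay below it with means of at most 26.0. Of the early zygotic genes, none was higher and 1 was lower with ethanol, the segmentation clock gene *her1* (log2 fold change -1.08, limma SE 0.24, adjusted p = 0.103). The paper had reported *her1* as lower in the same arrays, so this call is not independent support. The median log2 fold change of the 10 genes was -0.16, against 0.05 over all tested probe sets. Medians of single experiments were -0.26 to -0.0042. A positive log2 fold change was found for 3 of the 10, against 59.7% of all tested probe sets. An unadjusted limma p under 0.05 was found for 3 of the 10, against 18.2%. Whether the treatments differed in developmental stage was not tested.

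Cells of the blastula are joined in several ways. Claudins span the membrane and seal the space between epithelial cells at tight junctions, which scaffold proteins of the zonula occludens family tie to actin. Classical cadherins bind cells of like kind, and catenins link their tails to the cytoskeleton. Desmosomes couple the keratin filaments of neighbouring cells through desmocollins and desmogleins outside the cell and plakoglobin, plakophilins and desmoplakin inside it. In the zebrafish blastula, the outer sheet of cells, the enveloping layer, is the epithelium that carries tight junctions and desmosomes, while the deep cells beneath it move on E-cadherin and later on a matrix of fibronectin and laminin that integrins grip.

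With ethanol, 1 of the 36 genes was higher and 2 were lower in the test across all probe sets. The tight junction gene *cldn12* was higher, and the claudin gene *cldn3d* and the desmoplakin gene *dspa* were lower. No gene of the cadherins and catenins or of the matrix and integrins passed. A gene was called where its adjusted p (limma, Benjamini-Hochberg over all tested probe sets) was under 0.15, its unadjusted p under 0.03 and its log2 fold change at least 0.32 in size. The 3 genes are 8.33% of the 36. Among all 9767 tested probe sets, 5.40% were called, 3.78% as higher and 1.62% as lower. The median log2 fold change of the 36 genes was 0.03, against 0.05 over all tested probe sets, and 19 of the 36 values (52.8%) were positive, against 59.7%. Over the 32 genes that reached the minimum signal in both treatments the median was -0.02. For all 36 genes, the median of the absolute log2 fold change was 0.22, against 0.15 over all tested probe sets. An unadjusted p under 0.05 was found for 9 of the 36 genes, or 25.0%, against 18.2% of all tested probe sets. The signals of ethanol and control arrays overlapped for each of the 36 genes. Over all tested probe sets, 0.594% did not overlap. The log2 ratio had the same sign in all 6 experiments for 8 of the 36 genes (22.2%, against 12% of all tested probe sets), 4 of them above 0 and 4 below.

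**Figure D1:**
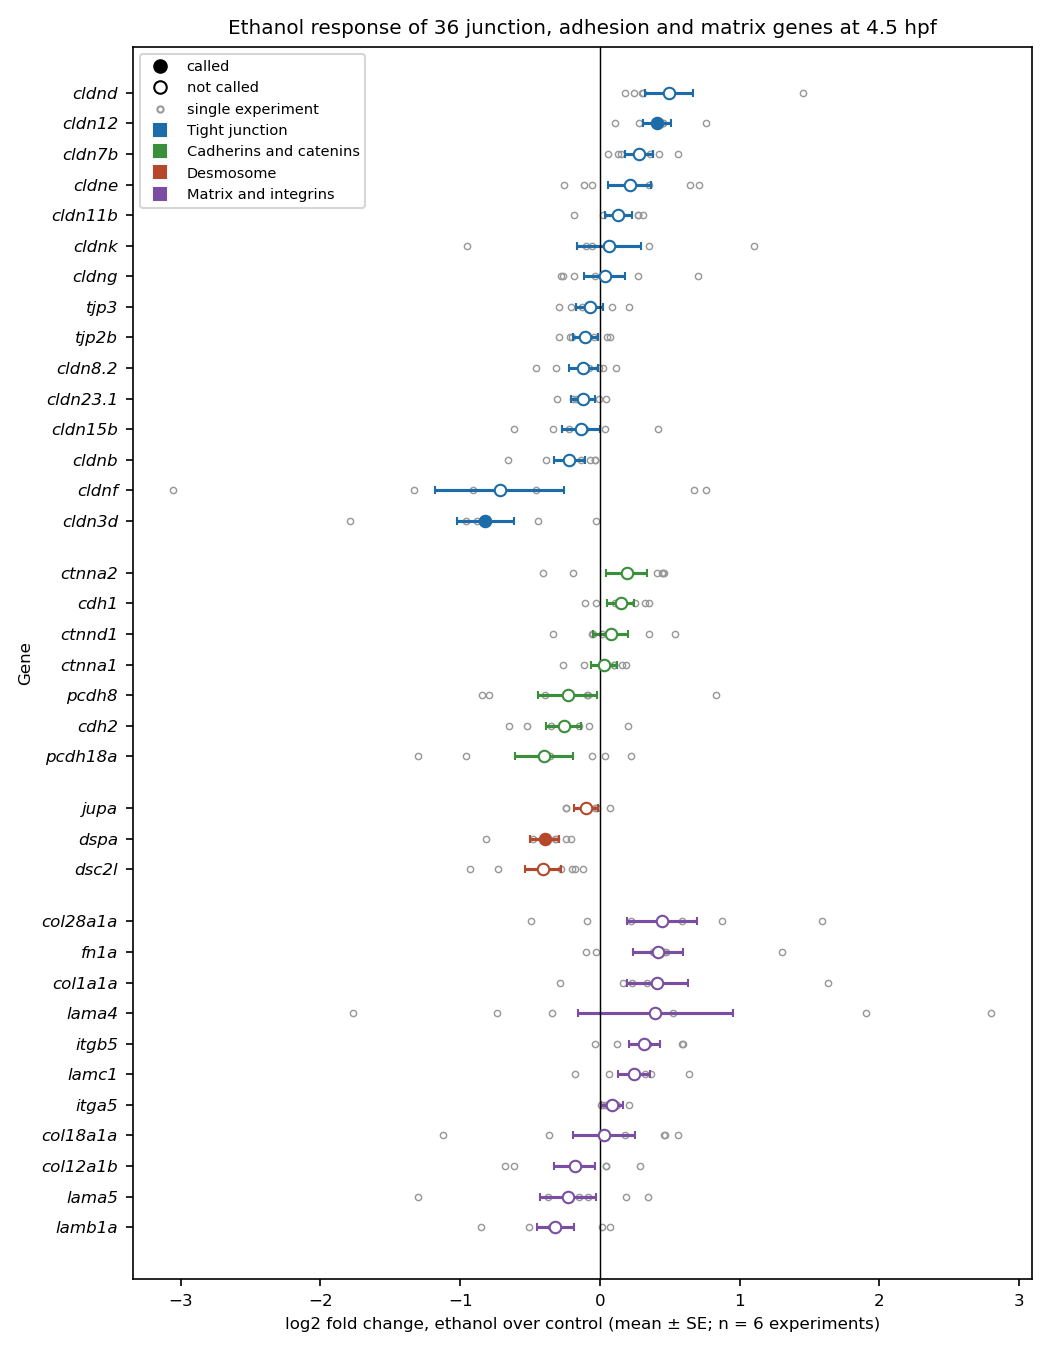
Log2 fold change of ethanol over control (horizontal axis) for each of the 36 genes (vertical axis), with large points for the limma estimate, bars for its SE and small grey circles for the log2 ratio of each of the 6 experiments. Filled points mark the 3 called genes, *cldn12* at 0.41, *dspa* at -0.40 and *cldn3d* at -0.82, and the grey circles of most other genes lie on both sides of 0.

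The largest fall among the called genes was that of *cldn3d*, which encodes a claudin, a sealing protein of tight junctions. On the ethanol arrays its signal was 82.4 at the lowest, 209 at the median and 344 at the highest, and on the control arrays it was 226, 319 and 467. The ethanol arrays of experiments 1, 2, 3 and 5 lay below every control array, while that of experiment 4, at 279, nearly equalled its own control at 285. The log2 ratios of experiments 1 to 6 were -1.79, -0.96, -0.82, -0.03, -0.88 and -0.44, so that the size of the fall varied widely. Its log2 fold change was -0.82 (limma SE 0.20, 95% interval -1.29 to -0.35, adjusted p = 0.120), or 1.76-fold lower, in 6 of 6 experiments (exact permutation of signs, two-sided p = 0.03125, the smallest 6 experiments allow). The exact p is unadjusted and rests on the ratios behind the limma call, here and for *cldn12* and *dspa*, so it is not separate support. Leaving out experiment 4 kept the call, with a log2 fold change of -0.98. The call was lost without experiment 1, 2, 3, 5 or 6, where the adjusted p was 0.171 to 0.232, and the log2 fold change was nearest to 0, at -0.63, without experiment 1. Over 11 other alternatives its adjusted p was 0.0346 to 0.545.

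The *cldn12* gene, another claudin gene, was the only gene of the 36 called as higher. Its signal on the ethanol arrays was 281 at the lowest, 442 at the median and 639 at the highest, against 241, 329 and 495 on the control arrays. Within each experiment the ethanol array was above its control, although the ethanol arrays of experiments 2 and 6 lay below several control arrays of other experiments. This gave a log2 fold change of 0.41 (limma SE 0.10, 95% interval 0.17 to 0.64, adjusted p = 0.122), or 1.33-fold, with log2 ratios of 0.11 to 0.76 (exact permutation of signs, two-sided p = 0.03125). Another *cldn12* probe set was not called. It had a signal of 104 to 139 on the ethanol arrays and 92.4 to 171 on the control arrays, and its log2 fold change was -0.03 (limma SE 0.14, adjusted p = 0.925). The difference between the 2 probe sets averaged -0.44 on the log2 scale, second minus first (SD 0.36, n = 6, exact permutation of signs, two-sided p = 0.0625, adjusted p = 0.281 over 9 such comparisons), and was negative in 5 of 6 experiments. The *cldn12* call was lost on leaving out any 1 experiment, with log2 fold changes of 0.34 to 0.47 and adjusted p-values of 0.172 to 0.239. It was also lost with experiment as a random block, under quantile normalization (log2 fold change 0.31) and median centring of the arrays (0.30), and with the mean of its probe sets (0.19). Over 11 such alternatives its adjusted p was 0.0642 to 0.650.

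**Figure D2:**
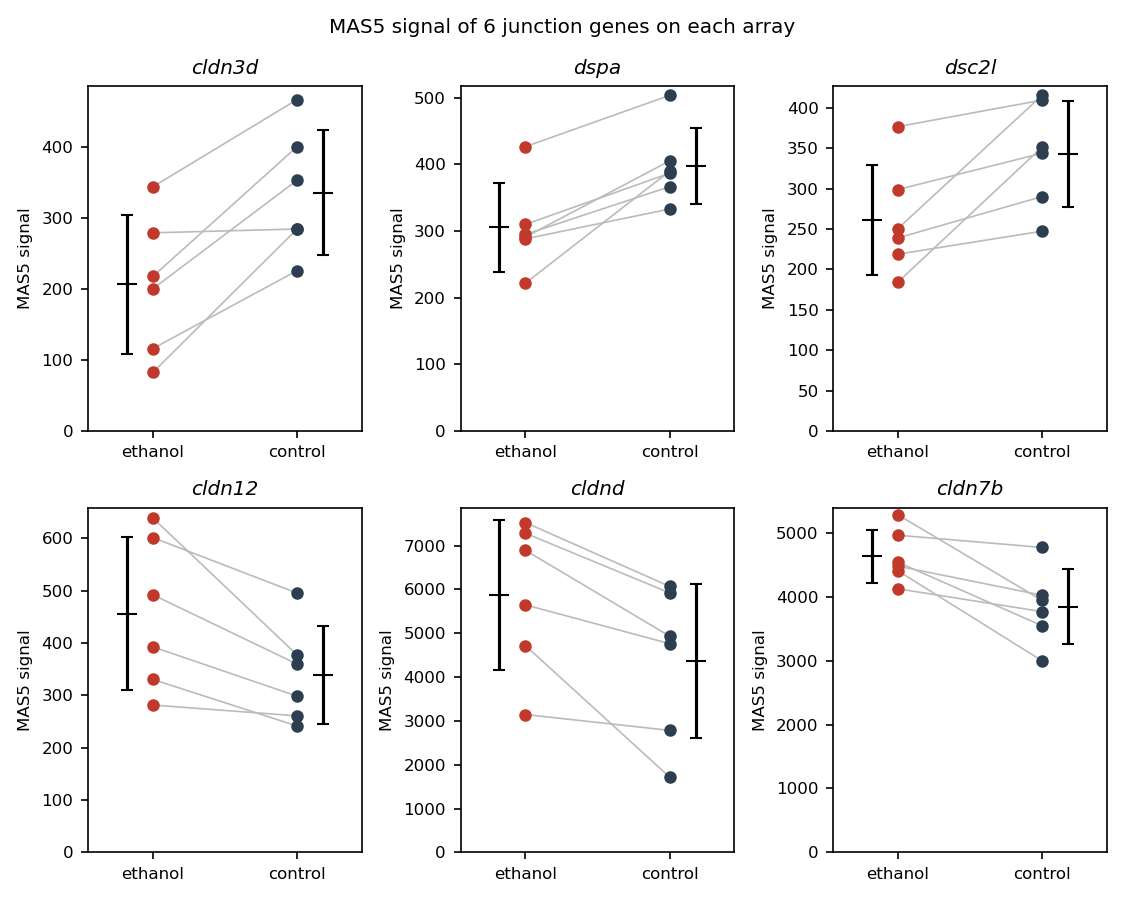
MAS5 signal (vertical axes, linear, from 0) of 6 junction genes on each ethanol array (red, left) and control array (dark, right), with grey lines joining the arrays of 1 experiment and black bars for the mean and SD of 6 arrays. The lines of *cldn3d*, *dspa* and *dsc2l* all run lower on the ethanol side and those of *cldn12*, *cldnd* and *cldn7b* all run higher, while the ranges of the treatments overlap in every panel.

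Of the 15 tight junction genes, 1 was higher, 1 was lower and 13 did not pass. That is 13.3% called, against 5.40% of all tested probe sets. A positive log2 fold change was found for 7 (46.7%, against 59.7%). The median of the 15 genes was -0.07, and -0.18 after median centring of the arrays. It was -0.02 over the 14 genes other than *cldnf*, which reached the minimum signal in control embryos only. Among the genes that did not pass, *cldnd* and *cldn7b* had higher signals in 6 of 6 experiments each. The *cldnd* signal was 3146 at the lowest, 6271 at the median and 7527 at the highest on the ethanol arrays, and 1720, 4849 and 6070 on the control arrays. Its control array of experiment 1 was the lowest of the 12 arrays, and the log2 ratio of that experiment, 1.46, stood apart from the others, which were 0.18 to 0.48. The *cldnd* log2 fold change was 0.49 (limma SE 0.17, adjusted p = 0.203), and 0.30 without experiment 1. For *cldn7b* the signal was 4123, 4508 and 5280 on the ethanol arrays and 2997, 3853 and 4770 on the control arrays, in the same order of lowest, median and highest. Its log2 fold change was 0.28 (limma SE 0.10, adjusted p = 0.204), and a second *cldn7b* probe set had one of 0.24 (limma SE 0.16, adjusted p = 0.451). The second was higher in only 3 of 6 experiments, with a log2 ratio of 1.11 in experiment 2 and -0.03 to 0.34 in the others. The first *cldn7b* probe set is of the kind that Affymetrix marks because its probes can match transcripts of more than 1 gene. Those of *jupa* and *col1a1a* are of this kind too.

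The *cldng* gene is covered by 4 tested probe sets, of which 1 was called. On the probe set of highest signal, its values were 3994 to 5289 on the ethanol arrays and 3175 to 6015 on the control arrays, with a log2 fold change of 0.03 (limma SE 0.14, adjusted p = 0.921). A second probe set ranged over 1567 to 2872 on the ethanol arrays and 1132 to 2021 on the control arrays, and was called as higher, with a log2 fold change of 0.51 (limma SE 0.09, adjusted p = 0.0862) and a higher signal in 6 of 6 experiments. The remaining *cldng* probe sets had log2 fold changes of 0.07 and 0.12 (adjusted p = 0.738 and 0.584 from limma). The log2 ratio of the called probe set was above that of the probe set of highest signal in 6 of 6 experiments, by 0.47 on average (SD 0.30, n = 6, exact permutation of signs, two-sided p = 0.03125, adjusted p = 0.281 over 9 comparisons). Which of the 4 follows the *cldng* transcript best is not known from these data.

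**Figure D3:**
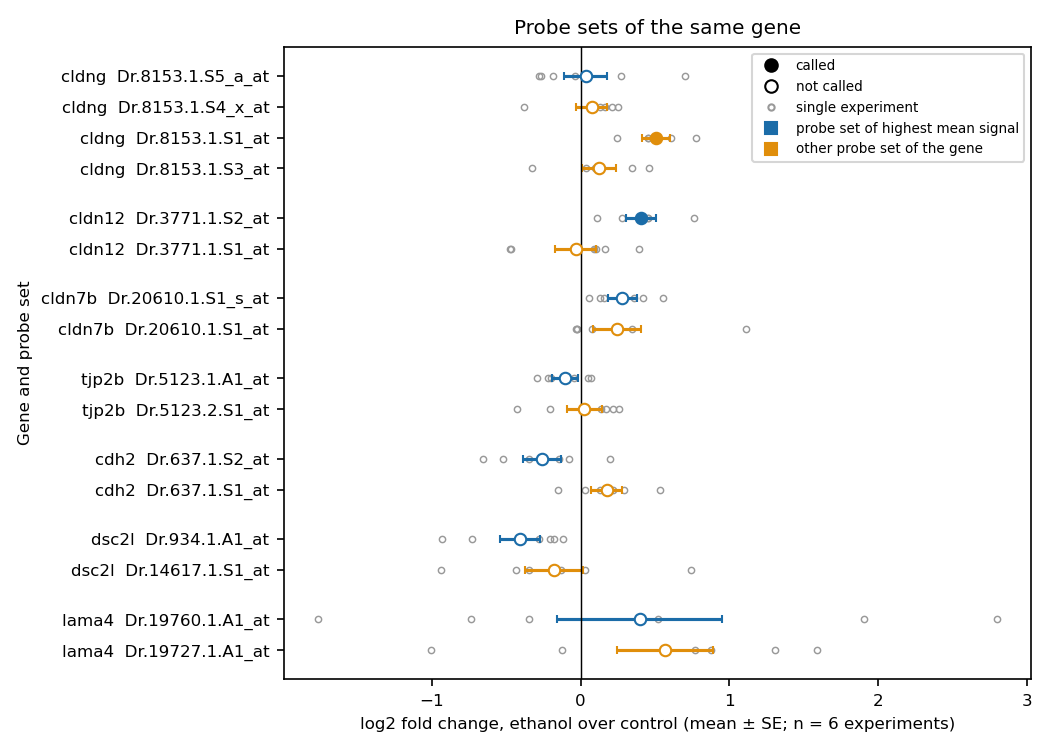
Log2 fold change of ethanol over control (horizontal axis; points and bars are the limma estimate and SE, grey circles the 6 experiments) for all tested probe sets of the 7 genes that have more than 1. Blue marks the probe set of highest mean signal and orange the others, and filled points mark the called probe sets, 1 of 2 for *cldn12* and 1 of 4 for *cldng*.

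None of the other claudin genes or the scaffold genes of tight junctions passed the test. The *cldnb* gene had a log2 fold change of -0.22 (limma SE 0.11, adjusted p = 0.331) with a lower signal in 6 of 6 experiments, by 0.03 to 0.66 on the log2 scale. *cldne*, which is needed for epiboly in zebrafish, had a signal of 112 to 212 on the ethanol arrays and 116 to 205 on the control arrays, with a higher value in 3 of 6 experiments (0.21, SE 0.15, adjusted p = 0.477). *cldnf* passed the minimum signal in control embryos only, with means of 43.1 in ethanol-exposed and 62.2 in control embryos, and its log2 ratios ran as far apart as -3.05 and 0.76. The signal of *cldn23.1* was 1711 to 3136 on the ethanol arrays and 1719 to 3580 on the control arrays, with a log2 fold change of -0.12 (limma SE 0.09, adjusted p = 0.465). The scaffold genes *tjp2b* and *tjp3* had log2 fold changes of -0.10 (limma SE 0.09, 95% interval -0.31 to 0.10) and -0.07 (limma SE 0.10, 95% interval -0.29 to 0.15). The claudin genes *cldn11b*, *cldn15b*, *cldn8.2* and *cldnk* had log2 fold changes between -0.14 and 0.13.

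Of the 3 desmosomal genes, 0 were higher and 1, *dspa*, was lower, and the log2 fold changes of *dsc2l* and *jupa*, which did not pass, were below 0 as well. The called share of 33.3%, against 5.40% of all tested probe sets, rests on 1 gene. The median log2 fold change of the 3 genes was -0.40, against 0.05 over all tested probe sets. Desmoplakin, the product of *dspa*, anchors keratin filaments to the desmosomal plaque. Its signal was 222 at the lowest, 293 at the median and 426 at the highest on the ethanol arrays, and 333, 388 and 503 on the control arrays. Each ethanol array other than that of experiment 6, which was the highest in its group as its control was, lay below all 6 control arrays. The log2 fold change of *dspa* was -0.40 (limma SE 0.10, 95% interval -0.63 to -0.16, adjusted p = 0.130), or 1.32-fold lower, in 6 of 6 experiments (exact permutation of signs, two-sided p = 0.03125), with ratios of -0.81 to -0.21. The *dspa* call was lost on leaving out any 1 experiment, with log2 fold changes of -0.43 to -0.31 and adjusted p-values of 0.190 to 0.245. Over 11 other alternatives its adjusted p was 0.0721 to 0.545.

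The desmocollin gene *dsc2l*, whose product is the adhesive part of the desmosome, had a signal of 184 at the lowest, 245 at the median and 377 at the highest on the ethanol arrays, and 247, 348 and 416 on the control arrays. The *dsc2l* signal was below its control in 6 of 6 experiments, by 0.93 and 0.73 on the log2 scale in experiments 4 and 5 and by 0.12 to 0.28 in the others. Its log2 fold change of -0.41 (limma SE 0.13, adjusted p = 0.180) did not pass, although it did under quantile normalization (adjusted p = 0.149) and median centring (0.142) and, over 11 alternatives other than leaving out experiments, its adjusted p was 0.107 to 0.601. A second *dsc2l* probe set had a log2 fold change of -0.18 (limma SE 0.19, adjusted p = 0.649). Plakoglobin is shared by desmosomes and adherens junctions. Its gene, *jupa*, had a signal of 2607 to 3226 on the ethanol arrays and 2841 to 3813 on the control arrays, and a log2 fold change of -0.10 (limma SE 0.09, 95% interval -0.29 to 0.10, adjusted p = 0.563). The differences in log2 ratio between these genes had adjusted p-values of 0.188 to 0.969 over the 3 pairs (exact permutation of signs). That of *dspa* minus *jupa* averaged -0.30 (SD 0.21, n = 6, exact permutation of signs, two-sided p = 0.0625, adjusted p = 0.188), and that of *dsc2l* minus *jupa* -0.31 (SD 0.44, n = 6, exact p = 0.156, adjusted p = 0.234). With 6 experiments this exact p cannot go below 0.03125 before adjustment, so these values do not show that the 3 genes moved alike.

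Other genes of junctions, a list chosen with earlier results of these data known, were examined beside these. Among 21 tested, none was higher, 2 were lower and the other 19 failed the test, with a median log2 fold change of -0.09. That is 9.52% called, against 5.40% of all tested probe sets. An unadjusted limma p under 0.05 was found for 8 of the 21, against 18.2% of all tested probe sets. A positive log2 fold change was found for 7 of the 21, against 59.7%. The 2 lower genes were *pkp1b*, which encodes a plakophilin of the desmosomal plaque, and *evplb*, which encodes envoplakin, a plakin of the cell cortex. The *pkp1b* signal was 66.0 at the lowest, 110 at the median and 177 at the highest on the ethanol arrays, and 79.7, 184 and 306 on the control arrays, a log2 fold change of -0.62 (limma SE 0.13, adjusted p = 0.101) with a lower signal in 6 of 6 experiments. For *evplb* the change was -0.90 (limma SE 0.23, adjusted p = 0.130), in 5 of 6 experiments. Its ethanol mean of 40.6 lay under the minimum signal and its control mean was 75.3. The inclusion of *evplb*, and its part in the 9.52% called, was thus open to the difference under study. Apart from it, *pkp1b* was the only called gene of this list. The desmosomal genes *perp*, *pkp3a* and *dsg2.1* had log2 fold changes of -0.41, -0.33 and -0.25 (adjusted p = 0.178, 0.232 and 0.240 from limma), each with a lower signal in 5 of 6 experiments. These 3 genes and those named next were picked after their values had been seen. The plakophilin gene *pkp4* had one of 0.02. Among genes of other junctions, the scaffold genes *magi1b* and *patj* had log2 fold changes of -0.34 and -0.31 (adjusted p = 0.244 and 0.307 from limma), each with a lower signal in 5 of 6 experiments, and the nectin gene *nectin3b* had one of 0.28 (adjusted p = 0.249), above 0 in 6 of 6. Those of the occludin gene *oclna*, the adhesion gene *epcam* and the beta-catenin genes *ctnnb1* and *ctnnb2* were -0.01, -0.09, -0.02 and 0.03. Whether desmosomal genes differed from other junction genes was not tested.

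Some markers of the enveloping layer were lower beside *dspa* and *cldn3d*. The lists of this layer and of the yolk syncytial layer were chosen with earlier results of these data known. The paper had reported *elf3*, *tfa*, *hnf4a* and *gata6* of these lists as lower in the same arrays. The called shares of both lists are therefore not independent support. Among 14 enveloping layer markers tested, none was higher, 4 were lower (*krt17*, *anxa1a*, *anxa1c* and *elf3*) and the other 10 failed the test. That is 28.6% called against 5.40% of all tested probe sets. Their median log2 fold change was -0.26, with -0.41 to -0.11 as the medians of single experiments, beside -0.32 to -0.18 for the desmosomal genes. The summed signal of the 14 markers was 42585 to 54467 on the ethanol arrays and 45930 to 63986 on the control arrays. A further marker with a probe set, *krt18b*, lay below the minimum, at means of 15.8 in ethanol-exposed and 17.6 in control embryos. The keratin genes that were not called, *krt4*, *krt5*, *krt8* and *krt18a.1*, had log2 fold changes of -0.06, -0.22, -0.28 and -0.01, with lower signals in 4, 5, 6 and 3 of 6 experiments. Those of *ppl*, *evpla*, *grhl1* and *anxa1b*, not called either, were -0.20, -0.24, -0.28 and -0.47. Of these, *anxa1b* reached the minimum signal in control embryos only, with means of 42.2 in ethanol-exposed and 64.7 in control embryos. Its inclusion was thus open to the difference under study. Of the 14 markers, 2 had a positive log2 fold change, *klf17* at 0.03 and *spint1a* at 0.08, each higher in 3 of 6 experiments. The markers *ppl* and *evpla* are also among the other junction genes above, and *grhl1* is among the regulators of cadherin genes below. These lists are thus not separate bodies of genes. The part of the enveloping layer in the junction results was not tested. In the yolk syncytial layer, 0 of 7 markers were higher and 2 were lower, the apolipoprotein gene *apoa1a* (log2 fold change -1.03, adjusted p = 0.0885 from limma) and the transferrin gene *tfa* (-1.05, adjusted p = 0.0494), each in 6 of 6 experiments. That is 28.6% called, against 5.40% of all tested probe sets. Of the 7 markers, 1 had a positive log2 fold change, *mxtx2* at 0.18 (adjusted p = 0.373 from limma), higher in 5 of 6 experiments. Although the paper had reported them as lower, *hnf4a* and *gata6* were not called here. Their log2 fold changes were -0.38 and -0.34 (adjusted p = 0.169 and 0.151 from limma), with lower signals in 5 and 6 of 6 experiments. The 7 markers had a median of -0.34, and a summed signal of 14894 to 18927 on the ethanol arrays and 15628 to 24235 on the control arrays. Within that sum, *apoeb* alone had means of 13776 on the ethanol arrays and 16073 on the control arrays. All 7 with a probe set passed the minimum signal. The part of that layer was likewise not tested.

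**Figure D4:**
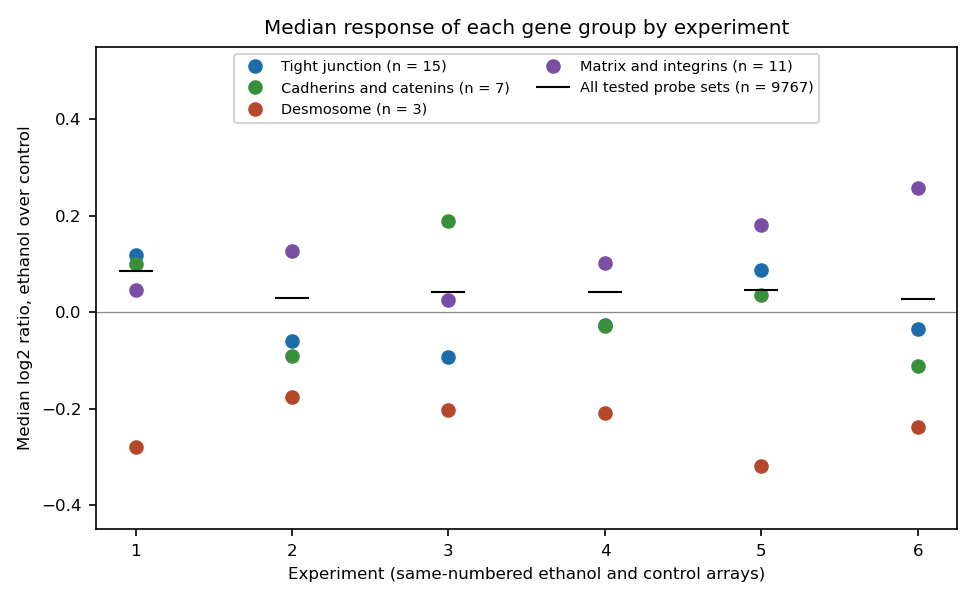
Median log2 ratio of ethanol over control (vertical axis) of the 4 gene groups and of all 9767 tested probe sets (black dashes) in each of the 6 experiments (horizontal axis; experiments have no order). The desmosomal median lies at -0.32 to -0.18, below that of all probe sets in 6 of 6 experiments, whereas the medians of tight junction genes and of cadherins and catenins lie on both sides of 0.

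Cadherins and catenins showed no called change. Of 7 genes, 0 were called by limma in either direction, against 5.40% of all tested probe sets. An unadjusted p under 0.05 was found for 0 of the 7, against 18.2%. Their median log2 fold change was 0.03, which became -0.08 after median centring of the arrays. E-cadherin, the product of *cdh1*, is the adhesion protein on which epiboly depends. The *cdh1* signal was 4572 at the lowest, 5547 at the median and 6288 at the highest on the ethanol arrays, and 4309, 4862 and 5665 on the control arrays. It was higher with ethanol in 4 of 6 experiments, and its log2 fold change of 0.15 (limma SE 0.10, adjusted p = 0.431) had a 95% interval of -0.07 to 0.37. After median centring it was 0.04, and 0.22 after quantile normalization. The catenin genes *ctnna1* and *ctnnd1*, for alpha-catenin, which links cadherins to actin, and p120 catenin, which binds the cadherin tail, had log2 fold changes of 0.03 (limma SE 0.09, 95% interval -0.19 to 0.24) and 0.08 (limma SE 0.13, 95% interval -0.21 to 0.37). *ctnna2* had one of 0.19 (limma SE 0.15, adjusted p = 0.505).

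N-cadherin is encoded by *cdh2*, and its 2 probe sets pointed in opposite directions. On the first, the signal was 424 at the lowest, 751 at the median and 1086 at the highest on the ethanol arrays, and 666, 905 and 1145 on the control arrays. It was lower in 5 of 6 experiments, with a log2 fold change of -0.26 (limma SE 0.13, adjusted p = 0.318). The second probe set had a signal of 89.6 to 158 on the ethanol arrays and 87.9 to 125 on the control arrays, with a log2 fold change of 0.17 (limma SE 0.11, adjusted p = 0.411). Their difference, second minus first, was 0.43 (SD 0.36, n = 6, exact permutation of signs, two-sided p = 0.0938, adjusted p = 0.281 over 9 comparisons). No change of *cdh2* passed. The smallest exact p that 6 experiments allow, 0.03125, also had an adjusted p of 0.281 over these 9 comparisons. The exact test therefore cannot decide whether the 2 probe sets differ. The protocadherin genes *pcdh18a* and *pcdh8* (paraxial protocadherin) had log2 fold changes of -0.40 (limma SE 0.21, adjusted p = 0.344) and -0.23 (limma SE 0.21, adjusted p = 0.581), with log2 ratios of -1.30 to 0.22 and -0.85 to 0.83. The *pcdh18a* signal lay near the minimum, at means of 62.7 in ethanol-exposed and 85.2 in control embryos. Another *pcdh18a* probe set lay below the minimum and was not tested. Its mean was higher with ethanol, at 13.3 in ethanol-exposed and 6.82 in control embryos.

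Of 11 matrix and integrin genes, 0 were called by limma, against 5.40% of all tested probe sets. An unadjusted p under 0.05 was found for 3 (27.3%, against 18.2%). The median log2 fold change was 0.24, with 8 positive values (72.7%, against 59.7%). Of the 8, *col1a1a*, *col28a1a* and *lama4* reached the minimum signal only with ethanol. Over the 8 genes that reached it in both treatments, the median was 0.06, close to that of all tested probe sets, with 5 positive values. After median centring the median of all 11 was 0.14, with 6 positive values. Fibronectin is a matrix protein to which migrating mesodermal cells bind. The *fn1a* signal was 177 at the lowest, 237 at the median and 312 at the highest on the ethanol arrays, and 126, 175 and 307 on the control arrays. Experiment 2 had the largest *fn1a* ratio, 1.31, while experiments 3 and 6 were at -0.03 and -0.10. Its log2 fold change was 0.42 (limma SE 0.18, adjusted p = 0.270). Other *fn1a* probe sets lay below the minimum signal and were not tested. Their means were lower with ethanol, at 29.9 and 6.12 in ethanol-exposed and 46.3 and 10.7 in control embryos.

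Integrins are the receptors for these proteins. The *itgb5* signal was 465 at the lowest, 568 at the median and 802 at the highest on the ethanol arrays, and 377, 508 and 598 on the control arrays, higher in 5 of 6 experiments with a log2 fold change of 0.32 (limma SE 0.11, adjusted p = 0.201). For *itga5*, which encodes the alpha chain of the fibronectin receptor, the signals were 234 to 582 on the ethanol arrays and 226 to 542 on the control arrays. Although higher in 6 of 6 experiments, *itga5* had ratios of only 0.01 to 0.21 and a log2 fold change of 0.08 (limma SE 0.08, adjusted p = 0.585), which was -0.0206 after median centring and -0.013 after quantile normalization. Laminins form basement membranes as trimers of an alpha, a beta and a gamma chain. The beta chain gene *lamb1a* had a signal of 467 to 1203 on the ethanol arrays and 753 to 1192 on the control arrays (log2 fold change -0.32, SE 0.13, adjusted p = 0.258), and the gamma chain gene *lamc1* one of 192 to 424 on the ethanol arrays and 154 to 355 on the control arrays (0.24, SE 0.12, adjusted p = 0.309). The alpha chain genes *lama4* and *lama5* lay near the minimum signal, with means of 54.2 and 53.9 in ethanol-exposed and 49.8 and 57.2 in control embryos. The *lama4* log2 ratios ran between -1.77 and 2.80, and those of *lama5* between -1.30 and 0.34.

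Of the collagen genes, 4 passed the minimum signal. *col12a1b*, a collagen that decorates fibrils, was the one with signals well above it. It had 726 at the lowest, 830 at the median and 908 at the highest on the ethanol arrays, and 596, 865 and 1454 on the control arrays. Its control arrays of experiments 1 and 2 stood highest, at 1344 and 1454, with log2 ratios of -0.62 and -0.68 in those experiments and -0.16 to 0.28 in the others, and its log2 fold change was -0.18 (limma SE 0.15, adjusted p = 0.535). The others, *col18a1a*, *col1a1a* and *col28a1a*, had log2 fold changes of 0.03, 0.41 and 0.45 with SEs of 0.22 to 0.25. Another *col1a1a* probe set lay below the minimum signal and was not tested. Its mean was lower with ethanol, at 34.6 in ethanol-exposed and 46.8 in control embryos. Of all 36 genes, *col1a1a*, *col28a1a*, *lama4* and *cldnf* reached the minimum in 1 treatment only, so that their inclusion was open to the difference under study. Just inside the minimum lay *col28a1a*, at means of 51.8 and 43.5 in ethanol-exposed and control embryos, and just outside it *lamb2l*, at 43.6 and 46.6.

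Adaptors and kinases on the inner side of integrins held no called gene. For comparison with this list and the 2 that follow, 5.40% of all tested probe sets were called and 18.2% had an unadjusted p under 0.05. Of 11 adaptors and kinases tested, 0 were called by limma and 0 had an unadjusted p under 0.05. A positive log2 fold change was found for 10 of the 11, against 59.7% of all tested probe sets. The median was 0.20, but ranged over experiments between -0.26 and 0.47 and was below 0 in experiments 5 and 6. Among other matrix proteins and matrix enzymes, 0 of 13 were called and 4 had an unadjusted p under 0.05, with a median of 0.15. Of 7 transcriptional regulators of cadherin genes, 0 were called and 1 had an unadjusted p under 0.05. The repressor genes *snai1a* and *snai2* had log2 fold changes of -0.05 and 0.13.

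Several of the 36 genes differed among the 6 experiments, which are separate batches of embryos. An F test of the experiment terms in the same limma fit was passed at an adjusted p under 0.05 by 8 genes (22.2%), against 17.9% of all tested probe sets. The 8 genes are *itga5*, *tjp2b*, *cldn12*, *lama5*, *cldn23.1*, *cldn11b*, *lamc1* and *cldnd*. The *itga5* signal followed the experiment closely (adjusted p = 0.00418 from limma). In experiments 1 to 6 it was 234, 247, 404, 582, 395 and 329 on the ethanol arrays, and 227, 226, 397, 542, 394 and 285 on the control arrays. Its highest value exceeded its lowest by 2.48-fold among ethanol arrays and 2.40-fold among control arrays, although within experiments the treatments differed by at most 0.21 on the log2 scale. In experiments 1 and 2, *tjp2b* was low as well, at 911 and 895 on the ethanol arrays and 1058 and 921 on the control arrays. Its other arrays gave 1126 to 1607 with ethanol and 1377 to 1786 in controls. *cldn11b* had its highest signals in the same experiments, 252 and 199 on the ethanol arrays and 209 and 184 on the control arrays. Between experiments the median SD of the log2 signal over the 36 genes was 0.39 on the ethanol arrays and 0.37 on the control arrays, against 0.29 and 0.33 over all tested probe sets.

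**Figure D5:**
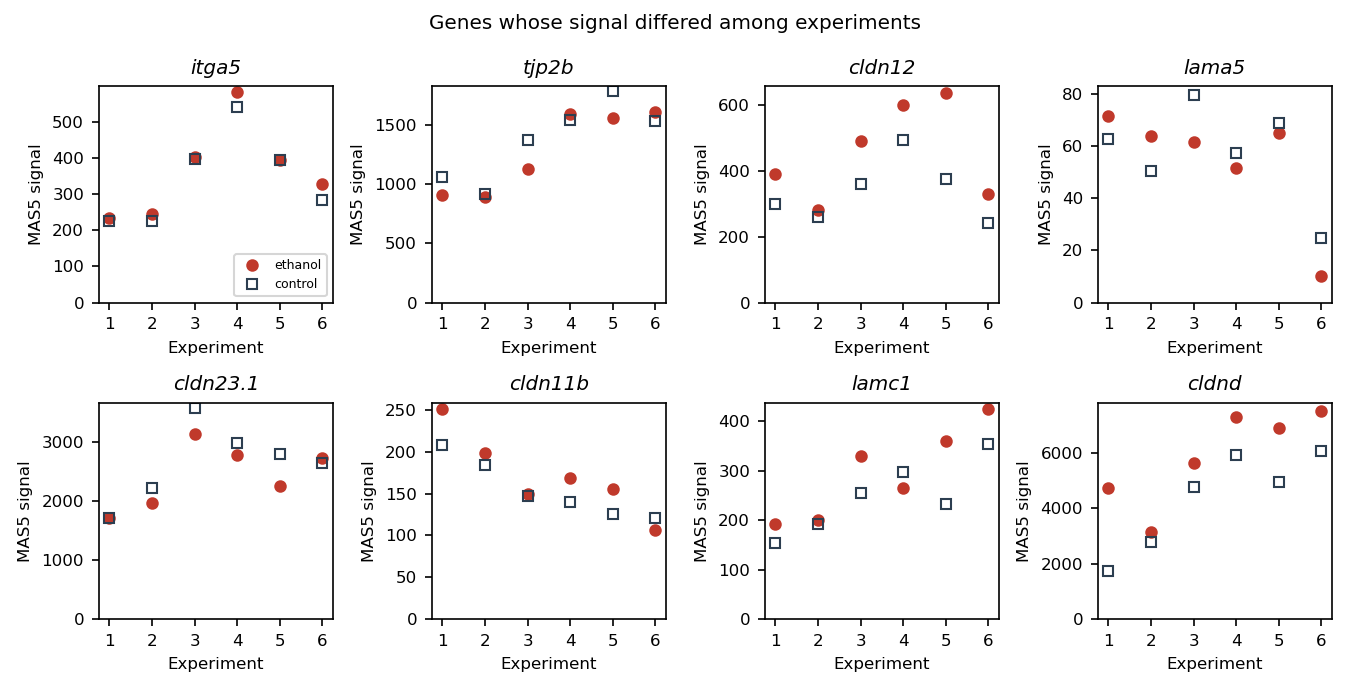
MAS5 signal (vertical axes, linear, from 0) in each of the 6 experiments (horizontal axes; experiments have no order) of the 8 genes that differed among experiments, with red circles for ethanol arrays and open dark squares for control arrays. The ethanol and control symbols of *itga5* nearly coincide within experiments, while its signal runs between 226 and 582 over the experiments.

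Without experiment as a term in the fit, none of the 36 genes was called by limma, with 4 at an unadjusted p under 0.05, and 1 of all 9767 probe sets was called. The adjusted p-values of *cldn3d*, *dspa* and *cldn12* were then 0.545, 0.545 and 0.650. No 2 of the 36 genes were paralogs that differ only in a final a or b of the symbol, so that no comparison between such paralogs was made.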

How the data were processed

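Per the methods, the authors labelled the RNA of each pool, hybridized it to a Zebrafish Genome Array, all 12 arrays as 1 batch, and made MAS5 signals in Affymetrix Expression Console, scaled to a target of 1000. They deposited this intensity on a linear scale. Of 7 experiments, 1 was left out by the authors for low RNA integrity.

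Probe sets were named by the platform annotation of 2016, in which 10802 of 15617 have 1 gene symbol. The members and lists were chosen with earlier results of these data known. The log2 signals of 9767 probe sets with a mean of at least 50 with ethanol or in controls were fitted with treatment and experiment as factors (limma 3.58.1, R 4.3.3). The authors' detection calls were not used here. Same-numbered arrays deviated together (correlations of 0.37 to 0.67 over 6 pairs), with 3 of 6 control arrays closest to the ethanol array of their own number. The methods use a 2-way analysis of variance with experiment as a random factor, and Storey q-values. Neither is part of the main fit here. The random block and the Storey q-values given below as alternatives were each applied to limma's moderated fit. The alternative without moderation is the 2-way model of the methods, with Benjamini-Hochberg adjustment. No alternative joins that model with Storey q-values. The methods do not say which arrays share an experiment, and the numbers of the labels were used. Adjusted p-values are limma's unless an exact test is named. That test permutes the signs of the log2 ratios of experiments (Python 3.11.15, numpy 2.4.6). The fit was also run on data simulated from its own estimates, with known changes. It called 60 of 100 changes of 1.5-fold, 91 of 100 of 2-fold and 19 of 9567 unchanged probe sets. A gene that did not pass may therefore still have changed. The simulation took the pairing by number as right, with independent normal noise and no shift between the treatments. Its rates may thus be better than those on the real arrays.

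By rule, the text names called genes, the 4 genes of highest signal in each group, genes whose probe sets differ in call, *cdh1*, *cdh2*, *ctnna1*, *fn1a*, *fn1b* and *itgb1a* where tested, paralog pairs (0 were found) and called genes of the other lists. All other genes named, the F test of experiments and the comparisons between probe sets and between desmosomal genes were chosen after the values had been seen.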

Additional observations from a re-analysis of the deposited data

Results flagged for a closer look

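In 4 of 72 sets of 6 arrays (each of the 36 genes in each treatment), 1 array stood apart by Dixon's test on the log2 scale, where chance gives about 1 in 20. The *lama5* signal on the ethanol array of experiment 6 was 10.04, against 51.5 to 71.4 on the other ethanol arrays. The *jupa* signal on the same array was 2607, against 2988 to 3226 on the others. For *col28a1a*, the ethanol array of experiment 2 gave 25.9, against 50.03 to 62.5, and the control array of the same experiment gave 8.64, against 33.1 to 70.3. All 4 values are the lowest of their sets.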

How the results depend on the processing

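The count of called genes, 3 of 36 (1 higher, 2 lower), changed with most settings. It was 0 without the replicate block, that is, without experiment as a factor, with 4 genes at an unadjusted p under 0.05. It was also 0 under the 2-way model of the methods without moderation (7 at an unadjusted p under 0.05). It was 0 as well at an adjusted p under 0.05 (9) and without a filter on low signal (11 of 82). It was 5 with Storey q-values, a minimum signal of 100 or log2(signal + 50), each with 2 higher and 3 lower, where *dsc2l* and *cldnd* joined. With a random replicate block, quantile normalization or median centring it was 3, with 0 higher and 3 lower, as *dsc2l* took the place of *cldn12*. Averaging the probe sets of each gene gave 2, with 0 higher and 2 lower, and updated symbols changed no call. Leaving out single experiments gave 0 to 1 called genes, 0 to 0 higher and 0 to 1 lower, the 1 being *cldn3d* without experiment 4.

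Over all probe sets, 527 were called, 1 without the block, 614 with a random block, 73 without moderation, 1006 with Storey q-values, 33 at an adjusted p under 0.05, 2 without a filter, 824 at a minimum of 100, 327 after quantile normalization, 407 after median centring, 726 with log2(signal + 50) and 21 to 143 without single experiments. The share of higher calls was 70.0%, 43.1% after quantile normalization and 29.5% after median centring, under which the median log2 fold change of all probe sets was 0.05, 0.01 and -0.05 in that order. The sign of the log2 fold change turned under median centring for 6 of the 36 genes, none of them called: *cldng* (-0.0709), *ctnna1* (-0.0761), *ctnnd1* (-0.0283), *itga5* (-0.0206), *col18a1a* (-0.0749) and *cldnk* (-0.0396). It also turned after quantile normalization for *itga5* (-0.013) and *col18a1a* (-0.0332). Without single experiments it turned for 6 genes, *cldng* (-0.0992 to 0.097), *ctnna1* (-0.0028 to 0.0873), *ctnnd1* (-0.0158 to 0.1589), *col18a1a* (-0.0753 to 0.2604), *cldnk* (-0.1417 to 0.2686) and *lama4* (-0.0835 to 0.8293). The causes were not tested. The planned comparison of paralogs could not be run, as 0 pairs had both genes above the minimum signal.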
